A study of Mus musculus with 6 samples.

Results

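The genes described here are 9 aldehyde dehydrogenase genes, Aldh3a1, Aldh3a2, Aldh1a1, Aldh1b1, Aldh2, Aldh4a1, Aldh7a1, Aldh9a1 and Aldh18a1, together with Adh5. All probes whose platform annotation names one of these 10 genes were taken, which gave 18 of the 45281 probes on the array. Of these, 8 probes of 6 genes passed the detection filter, which kept probes above the negative controls on 3 or more of the 6 arrays (detection p under 0.05), and 10 probes did not. Aldh3a1 was picked out because its difference between the groups had the smallest adjusted p of all genes tested (0.0844 by limma), and the other genes were set beside it with values of the same comparison known. All differences of these genes between the groups are therefore given as descriptions, without a test.

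The RNA came from mouse embryonic stem cells electroporated with a pHYPER short hairpin RNA (shRNA) vector against Chd1, a chromatin remodeller gene, or with a control vector, 3 samples each. All cells of both groups grew with leukemia inhibitory factor and 15% serum on mitomycin C-treated embryonic fibroblasts, and all went through 48 h of puromycin, begun 24 h after electroporation. The content of the control vector, the cell line and its genotype are not given in the sources used here. The samples lay on 1 Illumina BeadChip, control and Chd1 shRNA samples in separate runs of neighbouring positions, so chip position cannot be told apart from group. Nothing in the labels says that the samples of a group were separate cultures, so the spread between them may be technical.

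Aldehyde dehydrogenases oxidise reactive aldehydes to carboxylic acids with NAD or NADP as cofactor. The family members differ in compartment and substrate, from acetaldehyde and fatty aldehydes to retinal and intermediates of proline and lysine metabolism. Aldh3a1 encodes a cytosolic enzyme for aromatic and medium-chain aldehydes that is abundant in the mammalian cornea and that ligands of the aryl hydrocarbon receptor (AHR) induce in rodent liver cells. Adh5 belongs to another family, the zinc-dependent alcohol dehydrogenases. Its enzyme oxidises the glutathione adduct of formaldehyde and reduces S-nitrosoglutathione.

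Promoter sequence (250 bases before to 50 after an annotated start) was found in a RefSeq table of GRCm38.p6 for 7 of the 10 genes, and no window is shown for Aldh3a1, Aldh2 or Aldh7a1. Shown here are the windows of Adh5, whose groups lay apart on a bright probe, and of Aldh3a2, the nearest gene to Aldh3a1, whose groups overlapped. Capitals mark the core letters of the AHR site, GCGTG on either strand. The upstream Adh5 window lies at chr3:138436950-138437249, the downstream one at chr3:138442843-138443142, both on the plus strand, and that of Aldh3a2 at chr11:61267137-61267436 on the minus strand.
Adh5 upstream start: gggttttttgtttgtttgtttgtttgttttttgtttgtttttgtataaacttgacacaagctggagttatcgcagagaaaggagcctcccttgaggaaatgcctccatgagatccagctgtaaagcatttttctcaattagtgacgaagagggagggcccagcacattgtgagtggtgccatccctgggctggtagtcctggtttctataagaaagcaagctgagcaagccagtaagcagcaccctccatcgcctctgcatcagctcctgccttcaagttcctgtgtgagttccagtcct
Adh5 downstream start: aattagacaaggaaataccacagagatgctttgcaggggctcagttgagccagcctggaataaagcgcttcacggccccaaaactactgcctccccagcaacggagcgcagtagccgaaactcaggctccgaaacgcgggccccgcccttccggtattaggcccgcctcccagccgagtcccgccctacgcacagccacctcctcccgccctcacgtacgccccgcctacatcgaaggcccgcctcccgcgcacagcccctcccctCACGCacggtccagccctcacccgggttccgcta
Aldh3a2: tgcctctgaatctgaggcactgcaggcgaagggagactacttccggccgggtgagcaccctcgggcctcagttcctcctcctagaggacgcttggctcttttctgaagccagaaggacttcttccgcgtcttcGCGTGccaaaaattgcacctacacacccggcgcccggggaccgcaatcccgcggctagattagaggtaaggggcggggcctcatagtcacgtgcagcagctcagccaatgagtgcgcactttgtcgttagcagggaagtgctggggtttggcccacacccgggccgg
The downstream Adh5 window held 26 CpG dinucleotides and the upstream one 3, against a median of 7 over 32841 windows of the same length. The Aldh3a2 window held 21. GCGTG stood at 1 place in the downstream Adh5 window, 1 in that of Aldh3a2 and 0 in the upstream Adh5 window, and 32.4% of all windows held it at least at 1 place. The TATA letters TATAAA, searched on both strands, stood at 1 place in the upstream Adh5 window, in its early part and far before the annotated start. They occurred in 13.6% of all windows. Which Adh5 start was used in these cells was not measured.

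Chd1 itself was read by 4 probes past the filter, and on 3 of them every Chd1 shRNA array was below every control array. On the brightest probe, the control arrays had log2 intensities of 7.70, 8.81 and 6.91 and the Chd1 shRNA arrays 5.95, 5.95 and 5.29, in the order of replicates 1, 2 and 3, which is kept below. The level was 23.7% of control on this probe and 26.5%, 45.1% and 92.6% on the others, with overlapping groups on the last. That last probe had means of 5.05 in control and 4.94 in Chd1 shRNA. The lowest detected log2 values of the arrays were 4.73 to 4.85, so a drop could hardly show on it. Chd1 did not pass an adjusted p of 0.05 by limma (0.196). Of the 11600 genes tested, 0 passed (0% called), 1268 had an unadjusted p under 0.05 (10.9%), and 49.8% had a negative difference. Of the unadjusted calls, 42.1% were higher in Chd1 shRNA, and with median scaling of the arrays 91.0% were, since that scaling moved the median log2 difference of all genes to 0.21. Arrays detected 15663 to 15925 probes in the control group and 16285 to 17391 in the Chd1 shRNA group. The precision of every value below is limited by this number of arrays.

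Aldh3a1 gave a lower signal on all Chd1 shRNA arrays than on any control array, while the other aldehyde dehydrogenases that could be measured did not separate the groups. Its gene lies at chr11:61208510-61218418 in GRCm38, and a single probe, ILMN_1253178, reads it. Normalized log2 intensities were 6.55, 6.66 and 6.87 on the control arrays. On the Chd1 shRNA arrays they were 5.03, 4.65 and 5.02. The groups did not overlap, and the gap between them was wider than the spread within either. The means were 6.69 ± 0.16 (SD, n = 3) in control and 4.90 ± 0.22 (SD, n = 3) in Chd1 shRNA, a log2 difference of -1.79 (SE 0.19) and a level of 28.9% of control. Only 3 of the 11600 genes had a lower difference, which the choice of this gene used, and 70 did with no background correction.

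The Aldh3a1 signal was near the lower end of what the array measures. Before normalization, its intensity was 201, 162 and 166 on control replicates 1, 2 and 3, where the lowest detected intensities were 123, 109 and 102. On Chd1 shRNA replicates 1, 2 and 3 it was 123, 111 and 130, against lowest detected intensities of 117, 114 and 121. The probe was thus detected on all 3 control arrays and on 2 of 3 Chd1 shRNA arrays, replicate 2 lying below the limit with a detection p of 0.111. The unnormalized means, 177 ± 21.5 and 121 ± 9.22 (SD, n = 3 each), put the Chd1 shRNA arrays at 68.6% of control, so the size of the difference depended on how much background was removed. With no background correction the log2 difference was -0.71, and in the values processed by the authors it was -0.72. The direction was negative in all 15 alternatives that gave Aldh3a1 a value, but not all of these could have turned it. Leaving out an array could not, since the groups did not overlap. Dropping the filter, averaging probes and changing the variance model left the value at -1.79.

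**Figure D1:**
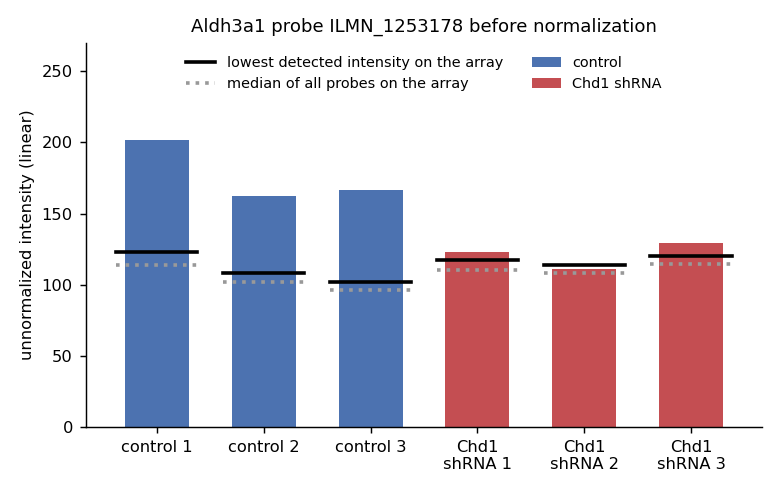
Unnormalized intensity (linear axis from 0) of the Aldh3a1 probe on each array, 1 bar per array. Black lines mark the lowest intensity that was detected on the array, and dotted lines the median of all its probes. Control bars reach 162 to 201, clear of the line, and Chd1 shRNA bars 111 to 130, at or just past it, replicate 2 below.

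Aldh3a2, the closest relative of Aldh3a1 among these genes, encodes the fatty aldehyde dehydrogenase of the endoplasmic reticulum, whose loss causes Sjogren-Larsson syndrome in humans. It lies at chr11:61223417-61267528, and 4998 bases separate the annotated end of Aldh3a1 from it. On its brightest probe, ILMN_2925350, log2 intensities were 9.29, 9.50 and 9.67 for control, against 9.62, 9.72 and 9.65 for Chd1 shRNA. Control replicate 1 was the lowest of these, and the groups overlapped. The log2 difference was 0.18 (SE 0.17), with means of 9.49 ± 0.19 and 9.66 ± 0.051 (SD, n = 3 each). A further probe, ILMN_2456946, gave 0.31 (SE 0.21 in the fit of all kept probes), also with overlapping groups. The remaining probes, both tied to cDNA clones, were detected on 1 array and on 0 arrays.

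Aldh2 encodes the mitochondrial enzyme that clears acetaldehyde and other small aldehydes. Its log2 intensities were 11.22, 11.36 and 11.96 for control, against 11.48, 11.51 and 11.73 for Chd1 shRNA. Control replicate 3 was the highest of all arrays, and the groups overlapped. The difference of 0.06 (SE 0.23) lay within the spread of the control arrays (SD 0.40).

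The genes at opposite ends of proline metabolism also had overlapping groups. Aldh4a1, whose mitochondrial enzyme carries out the last step of proline breakdown to glutamate, had log2 intensities of 10.60, 10.61 and 10.78 for control, against 10.93, 11.02 and 10.66 for Chd1 shRNA. Its log2 difference was 0.21 (SE 0.18) on this probe and 0.31 (SE 0.29 in the fit of all kept probes) on the dimmer ILMN_1244242. Aldh18a1 encodes the synthase that makes the proline precursor from glutamate. Its log2 intensities were 8.80, 8.70 and 8.17 for control, against 8.13, 8.17 and 8.24 for Chd1 shRNA. Control replicate 3 lay among the Chd1 shRNA arrays, and the other control arrays lay above them. The log2 difference was -0.37 (SE 0.20), with a control SD of 0.34 and a Chd1 shRNA SD of 0.057. With median scaling, relative to the shift of all genes, it was -0.29.

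Adh5 was the other gene whose groups lay apart. Its probe ILMN_1242178 had log2 intensities of 10.01, 9.70 and 10.08 for control, against 8.79, 8.79 and 8.94 for Chd1 shRNA. The lowest control array was above the highest Chd1 shRNA array. The means were 9.93 ± 0.21 and 8.84 ± 0.084 (SD, n = 3 each), a log2 difference of -1.09 (SE 0.18) and 47.0% of control. Unlike Aldh3a1, this probe was detected on every array, and its difference was -0.96 without background correction. In unnormalized intensities the groups were also apart, at 1353, 745 and 894 against 567, 536 and 728, though the lowest control and the highest Chd1 shRNA array were close. Another 64 genes had a lower difference than Adh5, and 20 with no background correction, where Adh5 lay below Aldh3a1.

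The other 3 Adh5 probes were at background. ILMN_2852979 and ILMN_1217813, annotated to the same RefSeq mRNA as ILMN_1242178, were detected on 1 array and on 0 arrays, and ILMN_1212856, tied to a cDNA clone, on 0. The Adh5 difference therefore rests on 1 of 4 probes, and which part of the transcript each probe reads was not analysed here. The gene lies at chr3:138437200-138455499.

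**Figure D2:**
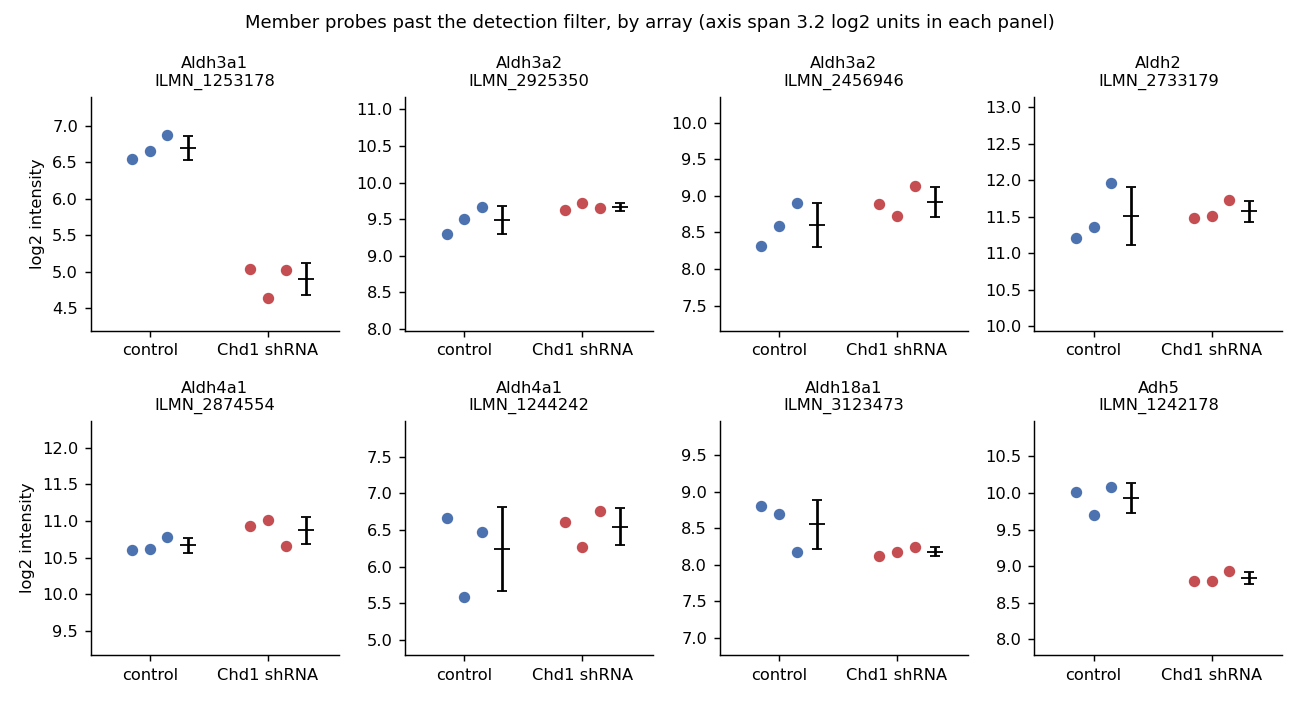
Normalized log2 intensity on each array for the 8 member probes past the filter. Points are arrays, and the bar beside each group is the mean with its SD (n = 3). The groups lie apart for Aldh3a1 and for Adh5 and overlap on the other 6 probes.

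Aldh1a1, Aldh1b1, Aldh7a1 and Aldh9a1 had no probe past the filter, so no difference is given for them. Aldh1a1 makes retinoic acid from retinal in the cytosol, Aldh1b1 is a mitochondrial acetaldehyde dehydrogenase, Aldh7a1 acts in lysine breakdown, and Aldh9a1 in carnitine synthesis. Each had 1 probe. Aldh1b1 was detected on 1 array, Chd1 shRNA replicate 2, and the other 3 genes on 0 of 6 arrays. The 10 member probes below the filter lay between 4.17 and 5.15 on the log2 scale, where the lowest detected probe of an array lay between 4.73 and 4.85. A transcript that these probes do not read would not have been seen.

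In all, 3 of the 6 measurable genes had a negative difference, and 2 of 6 had groups that did not overlap, Aldh3a1 and Adh5, both lower in Chd1 shRNA. Of all genes tested, 9.18% had groups apart in that direction. The genes were chosen from this comparison, so nothing follows from the share. The median log2 difference of the 6 genes was -0.16, beside 0.0012 for all genes tested.

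**Figure D3:**
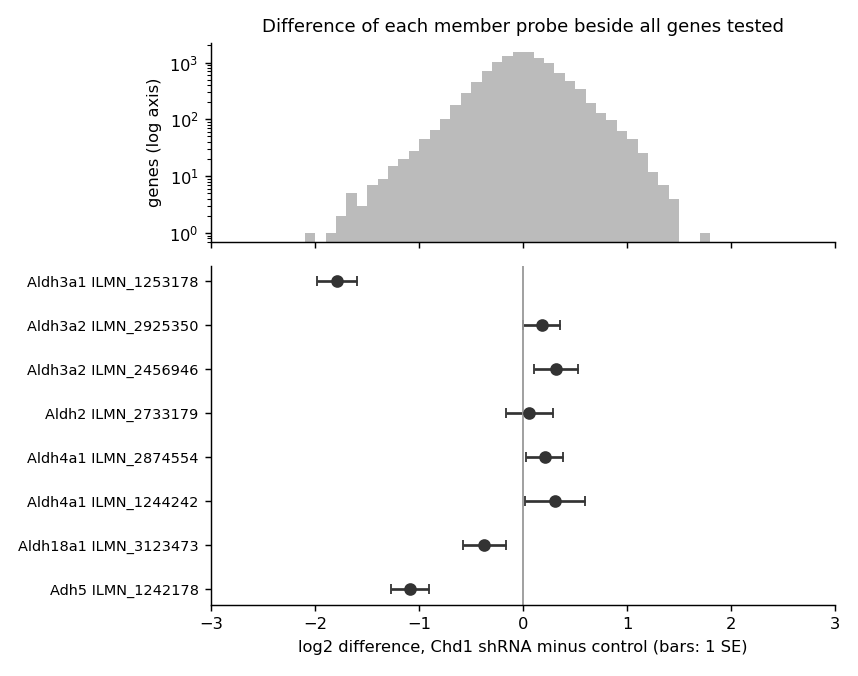
The upper histogram counts all genes tested by log2 difference (log axis for counts). Below it, points give the 8 member probes with bars of 1 SE. Aldh3a1 at -1.79 and Adh5 at -1.09 stand in the left tail, and the other 6 probes lie between -0.37 and 0.31.

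Aldh3a1 was then set against its relatives on each array. For every gene the mean over 6 arrays was subtracted, and the median of Aldh3a2, Aldh2, Aldh4a1 and Aldh18a1 was taken from Aldh3a1. The result was 0.98, 0.98 and 1.02 for control, against -0.75, -1.21 and -0.75 for Chd1 shRNA. The control arrays lay close together, and Chd1 shRNA replicate 2 was lower than the other arrays of its group. Averaged over arrays, this contrast differed by -1.90 between the groups, and the median of the relatives by 0.11. Taken instead from the fitted gene differences, whose median over the 4 relatives was 0.12, it was -1.91, and -0.82 with no background correction.

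Signal of fibroblast and stem cell marker genes also differed between the arrays. Of 28 fibroblast markers, 21 were tested and 18 were detected on every array, while Col1a2, Col5a2 and Postn were detected on none. The mean log2 intensity of the tested markers ranged from 7.44 to 8.61 on control and from 8.02 to 8.98 on Chd1 shRNA arrays, and 19 of 21 had positive differences. Groups lay apart for 0 of the 21, where 9.18% of all genes tested were apart with lower and 6.87% with higher Chd1 shRNA values. The median log2 difference of the 21 was 0.82. At an unadjusted p under 0.05 by limma, 7 were higher and 0 lower, where 4.6% of all genes tested were higher. Which cells gave this signal was not measured. Of 15 stem cell markers, 14 were tested and Nr0b1 was detected on no array. Their mean ranged from 9.58 to 10.12 on control and from 9.38 to 9.76 on Chd1 shRNA arrays, with 12 of 14 differences negative. Groups lay apart for 1 of the 14, lower in Chd1 shRNA. The median log2 difference of the 14 was -0.30. At an unadjusted p under 0.05 by limma, 4 were lower and 0 higher, where 6.33% of all genes tested were lower. In bulk samples, fewer cells of a type and less RNA per cell cannot be told apart. Control replicate 3, with the fibroblast markers at 8.61, had the highest Aldh3a1 of all arrays, and Chd1 shRNA replicate 1, with 8.02, had Aldh3a1 at 5.03. Adh5 was likewise highest on control replicate 3 (10.08) and at 8.79 on Chd1 shRNA replicate 1. The part of either cell type in the Aldh3a1 and Adh5 differences was not tested.

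**Figure D4:**
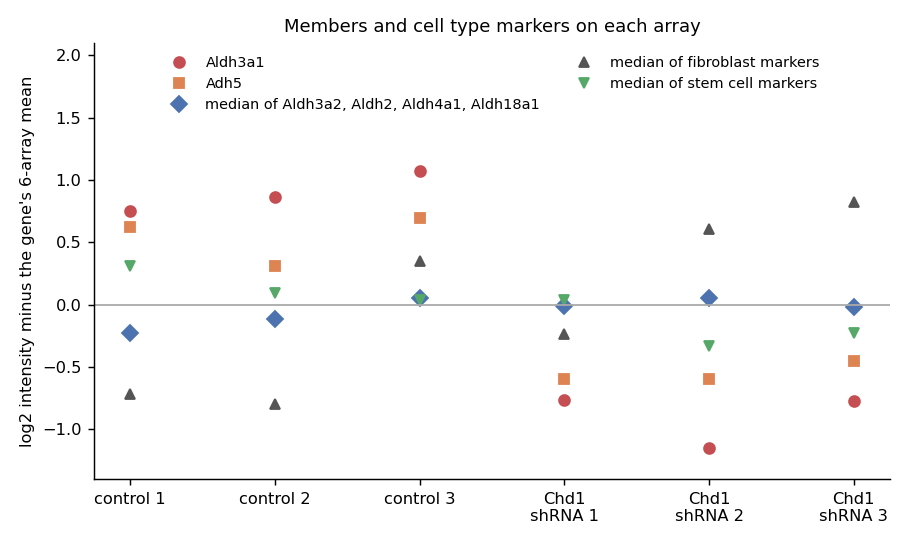
Log2 intensity minus the 6-array mean of the gene, by array, for Aldh3a1, Adh5, the median of 4 relatives and the medians of fibroblast and stem cell markers. Aldh3a1 and Adh5 are positive on all control arrays and negative on all Chd1 shRNA arrays, while the fibroblast median is positive on control replicate 3 and negative on Chd1 shRNA replicate 1.

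The 5 named genes with the pattern most like that of Aldh3a1 over the 6 arrays, by Pearson r of log2 intensity, were Lce3b, Fam25c, Ttc27, Mmp1a and Rnf138, with r from 0.988 to 0.998. Lce3b encodes a late cornified envelope protein, Mmp1a an interstitial collagenase and Rnf138 a RING-type ubiquitin ligase. Adh5 ranked 23 by this measure, with r = 0.972. These coefficients describe 6 arrays in 2 separate groups, so a gene whose groups lie apart tends to score high. Lce3b was detected on the 3 control arrays and on 0 Chd1 shRNA arrays, so it passed the filter through the control arrays alone. Its values in Chd1 shRNA are background, and its r rests on them. Against the mean of the lowest detected log2 values of the Chd1 shRNA arrays, it was at least 1.27-fold higher in control, which is only a description. The log2 differences of the other 4 genes were smaller than that of Aldh3a1, from -0.94 (SE 0.17) for Fam25c to -0.30 (SE 0.15) for Mmp1a.

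Genes beside Aldh3a1 on chromosome 11 were read as well. Kcnj12, an inward rectifier potassium channel gene, had a log2 difference of 0.34 (SE 0.22), and Usp22, the deubiquitinase gene of the SAGA complex, 0.12 (SE 0.20), both with overlapping groups. Kcnj12 was detected on 1 control array and 3 Chd1 shRNA arrays, so most of its control values are background. Tnfrsf13b and Slc47a2 had no probe past the filter. Slc47a1, which encodes a proton-coupled exporter of organic cations and lies beyond Aldh3a2 and Slc47a2, had log2 intensities of 8.62, 8.87 and 8.41 for control, against 8.35, 7.44 and 7.47 for Chd1 shRNA. The groups were apart, though Chd1 shRNA replicate 1 was close to control replicate 3. Its log2 difference was -0.88 (SE 0.27), and its dimmer probes gave -0.27 and -0.43 with overlapping groups.

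Other genes of aldehyde metabolism came from lists of related enzymes. Of 144 such genes 77 were tested, and 0 passed an adjusted p of 0.05 by limma in either direction. At an unadjusted p under 0.05, 6 were lower and 3 higher in Chd1 shRNA, where 6.33% of all genes tested were lower and 4.6% higher. Groups lay apart with lower Chd1 shRNA values in 10 of the 77 and with higher ones in 3, where 9.18% and 6.87% of all genes tested did. All 13 are given below, and those outside the rule for names were chosen after their values were seen. The median log2 difference of the 77 was 0.05.

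Among further aldehyde dehydrogenase genes, 6 of 12 were tested, all with small negative values, a median of -0.13 and 0 calls at the unadjusted threshold. Aldh1a2, the main retinal dehydrogenase of the embryo, had a difference of -0.36 (SE 0.29), and Aldh6a1, which acts in valine breakdown, -0.18 (SE 0.29). Both were detected on 2 arrays of each group. Of 7 other alcohol dehydrogenase entries, 0 were tested, so Adh5 was the only listed alcohol dehydrogenase gene with a value. In the formaldehyde and one-carbon list, 10 of 12 values were negative with a median of -0.27, where 49.8% of all genes tested were negative. Esd, whose esterase acts after the Adh5 enzyme in formaldehyde removal, had a value of 0.82 (SE 0.42), opposite in sign to Adh5, with overlapping groups. Shmt1, the cytosolic serine hydroxymethyltransferase gene, had -0.61 (SE 0.30), also with overlapping groups. The groups lay apart, with lower Chd1 shRNA values, for Fancl (-0.53), Fancc (-0.29) and Fance (-0.28), genes of the Fanconi anaemia repair pathway, and for Shmt2 (-0.50), the mitochondrial counterpart of Shmt1.

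Carbonyl reductases and oxidases, which act on aldehydes and ketones by other routes, had positive values in 9 of 10 with a median of 0.19. The values were 0.86 (SE 0.45) for Dcxr and 0.71 (SE 0.40) for Akr1c18, both with overlapping groups and both higher on control replicate 3 than on the other control arrays. Akr1c18 was detected on 1 control array and 2 Chd1 shRNA arrays, so most of its control values are background. Cbr1, a carbonyl reductase gene, was the 1 gene with a negative value, -0.47 (SE 0.20), and the 1 gene whose groups lay apart. In the retinoid list, with a median of 0.06 over 14 genes, Crabp1, which encodes a cytosolic retinoic acid-binding protein, had log2 intensities of 6.87, 7.36 and 6.58 for control, against 6.06, 6.10 and 5.07 for Chd1 shRNA. Its groups were apart, with a log2 difference of -1.19 (SE 0.32) and an adjusted p of 0.256 by limma. Rdh14, a retinol dehydrogenase gene, had 0.40 (SE 0.22).

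Proline genes had a median of 0.17 over 4 tested. Pycrl, a reductase gene of the step after Aldh18a1, had 0.38 (SE 0.19) with groups apart, and Oat, the ornithine aminotransferase gene, 0.25 (SE 0.18). In the list of fatty aldehyde and sphingolipid genes, 9 of 10 values were positive with a median of 0.26. Sphk1, a sphingosine kinase gene, had 0.81 (SE 0.43) with overlapping groups, and Pex7, a peroxisomal import receptor gene, 0.59 (SE 0.18) with groups apart. The choline, lysine and GABA list had a median of 0.03 over 7. Maob, a monoamine oxidase gene, was detected on 0 control arrays and all 3 Chd1 shRNA arrays, so it passed the filter through the latter alone. Its groups were apart, with Chd1 shRNA at least 1.39-fold higher than the mean of the lowest detected log2 values of the control arrays, which is only a description. Aoc3, an amine oxidase gene, had -0.79 (SE 0.51) with overlapping groups, and was detected on 2 control arrays and 1 Chd1 shRNA array. Gad1, a glutamate decarboxylase gene, had -0.50 (SE 0.24) with groups apart.

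Genes of the AHR and NRF2 responses, to which Aldh3a1 belongs in rodent liver, had positive values in 9 of 14 with a median of 0.20. Hmox1, the inducible heme oxygenase gene, had 1.07 (SE 0.61) and Srxn1, a sulfiredoxin gene, 0.90 (SE 0.43), with overlapping groups. Of all genes tested, 9.18% had groups apart with lower Chd1 shRNA values. Of the 14 genes, 3 had groups apart, all lower in Chd1 shRNA. These were the glutathione transferase genes Gsta4, at -0.69 (SE 0.16), and Gstm1, at -0.54 (SE 0.21), and Taldo1, the transaldolase gene, at -0.12 (SE 0.16). On control replicate 3, where fibroblast markers were highest among controls, Hmox1 read 8.93 and Srxn1 9.17, against 7.30 to 7.59 and 7.70 to 7.83 on the other control arrays. The part of fibroblasts in the values of Hmox1 and Srxn1 was not tested.

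**Figure D5:**
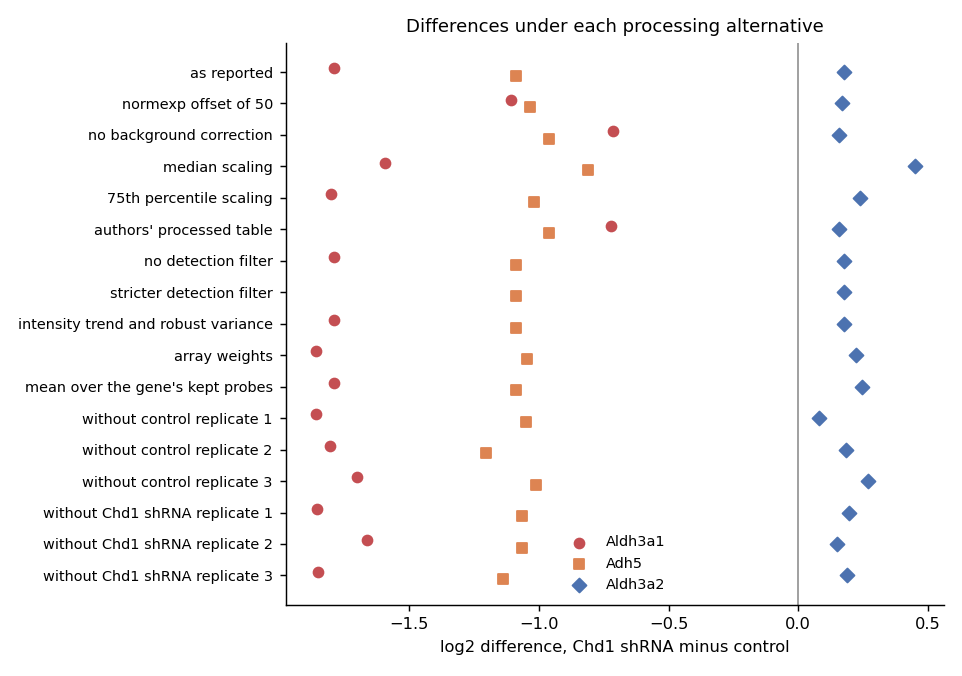
Log2 difference of Aldh3a1, Adh5 and Aldh3a2 as reported (top) and under each of 16 alternatives. Aldh3a1 runs from -1.86 to -0.71 and has no point under the stricter detection filter, Adh5 runs from -1.21 to -0.81, and Aldh3a2 from 0.08 to 0.45.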

How the data were processed

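Transcripts of mouse embryonic stem cells were measured on a bead array in 3 control and 3 Chd1 shRNA samples, grouped by the transfection label. Replicate numbers only name samples, in accession order, and pair none of them. The deposited intensity table is linear and unnormalized, made with GenomeStudio per the submitters' processing notes, and it gives a detection p-value per probe and array, per the file headers. A further deposited table of intensity values had been processed by the authors by a method not given in the sources used here, and served as an alternative.

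Background correction (normexp from the detection p-values, offset 16), quantile normalization and log2 were done with limma 3.58.1 in R 4.3.3. The filter kept 16018 probes. Platform annotation gave 1 gene for 34885 probes, several for 18 and none for 10378. The brightest kept probe stood for a gene, giving 9507 genes and 2093 unnamed probes. Differences (Chd1 shRNA minus control) came from lmFit and eBayes, with Benjamini-Hochberg adjustment over all 11600. Further probes of a gene came from a fit of all kept probes. The fit was tested on simulated normalized values with known differences, and the probe choice on a toy table. Background correction, normalization and the detection filter were not covered by these tests.

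Named are the 10 genes, the 2 largest absolute differences of each related list, the 5 genes most like Aldh3a1, 3 neighbours on each side with a probe, and Chd1. Genes named beyond this rule were picked with their values in view, as the text says. The genes and lists were chosen with earlier results of these data known. Alternatives covered offset, background, scaling, filter, variance model, array weights, probe choice, the authors' table and leaving out each array.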

Additional observations from a re-analysis of the deposited data

How the results depend on the processing

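No paired analysis was possible because the labels give the samples no replicate numbers, those used here being names in accession order. The log2 difference of Aldh3a1 was -1.11 with an offset of 50, -0.71 with no background correction, -1.59 with median scaling and -0.72 in the authors' table, and from -1.86 to -1.66 with each array left out. Set against its relatives it was -1.22 with an offset of 50, -0.82 with no background correction and -0.83 in the authors' table, and from -1.99 to -1.77 with arrays left out. The stricter filter (detection p under 0.01 on all 6 arrays) removed Aldh3a1. The count of genes past an adjusted p of 0.05 by limma was 0 as reported, 2 with median scaling, 1 with 75th percentile scaling, 18 with robust variance and an intensity trend, 37 with weighted arrays, and 0 with each array left out. Aldh3a1 was among the calls under these 4 settings and Adh5 under the last 2 of them, which adds no support since both were chosen from this comparison. Aldh2 turned to -0.092 without control replicate 1, to -0.017 without control replicate 2 and to -0.021 without Chd1 shRNA replicate 3, and was 0.28 without control replicate 3. Aldh4a1 ran from 0.13 (without Chd1 shRNA replicate 2) to 0.42 (median scaling) and was 0.31 without Chd1 shRNA replicate 3. Aldh3a2 ran from 0.081 (without control replicate 1) to 0.45 (median scaling). Relative to the shift of all genes, the values with median scaling were -1.81 for Aldh3a1, 0.24 for Aldh3a2 and 0.21 for Aldh4a1. The difference of Aldh18a1 ran from -0.57 (without control replicate 3) to -0.074 (median scaling). Adh5, Aldh18a1, Aldh3a2 and Aldh4a1 kept their sign in all 16 alternatives, among them median scaling, where Adh5 was -0.81, or -1.02 relative to the shift of all genes. For Adh5, whose groups lay apart, leaving out an array could not have turned the sign. Of the related genes, 0 passed in any of the 16. The low signal of the Aldh3a1 probe limits how well the size of its difference is known.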
